A study of Arabidopsis thaliana with 36 samples.

Results

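The comparison described here asked what narrowband UV-B did to the transcriptome of wild-type *Arabidopsis thaliana* (Col) that was at the same time moved into simulated shade. Shade was simulated by supplementary far-red light, which lowers the ratio of red to far-red light (R:FR) as light filtered through leaves does. The members are the 6 wild-type libraries from low R:FR, 3 without UV-B (+FR) and 3 with UV-B added (+FR+UVB), out of 36 libraries in the series, and the 20926 genes of the normalised table, out of 33602 genes counted. All seedlings were 7 days old, had grown at 22 °C in constant white light of 60 µmol m-2 s-1 (R:FR of 4.7), and were treated for 3 h. For low R:FR the sources give a ratio of 0.05 in one place and 0.08 in another, and UV-B was supplied at 0.06 mW cm-2 under filters that let it pass, while seedlings without UV-B stood under filters that block it. Each library came from 30 whole seedlings pooled, and replicates came from separate plates. No tissue was dissected, so fewer cells of a type and less RNA per cell cannot be told apart in any value below. For reference, the same UV-B treatment was read in wild type in white light (+UVB against WL, 3 libraries each) and under low R:FR in *uvr8* (*uvr8-6*) and *hfr1* (*hfr1-101*), also with 3 libraries per group; none of these groups shares a library with the comparison.

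Library totals of the 6 members ran from 17241992 to 21074908 counts, within the range of 9749710 to 21175260 over the series. Expression is given in CPM, the count relative to the library total on a fixed common scale, after TMM scaling, which corrects for a few abundant transcripts taking up a library, and is not divided by transcript length, so levels are compared between libraries and not between genes. The 3 values of a group are given in the order of the replicate numbers. *UVR8* (AT5G63860), which encodes the UV-B photoreceptor, was at 14.5, 14.7 and 13 CPM in *uvr8* under +FR and at 15.6, 14.5 and 12.2 CPM under +FR+UVB, against 98.6, 98.2 and 102 CPM and 68.3, 75.1 and 66.2 CPM in wild type, so that the genotypes did not overlap. In a multidimensional scaling of the 6 libraries, the first dimension (69.0% of the variance) separated +FR from +FR+UVB and the second (17.5%) separated +FR replicate 2 from +FR replicate 3. Among 11975 genes with a +FR mean of at least 10 CPM, 77 differed by more than 4-fold across the +FR libraries, with replicate 3 the highest for 76, and 19 of the 77 were called lower and 3 higher below. The summed level of 13 root and root-hair markers was 199.9 to 442 CPM under +FR and 204 to 349 CPM under +FR+UVB, that of 20 photosynthesis genes, which mark green tissue, was 80992 to 92569 CPM and 90610 to 94261 CPM, and that of 8 reference genes, of which 0 were called, was 2362 to 2447.5 CPM under +FR and 2779.6 to 2852.8 CPM under +FR+UVB, so that only the reference genes' sums separated the conditions; their part in the results was not tested.

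UV-B is perceived by UVR8, which on activation binds the E3 ubiquitin ligase COP1 and so lets the bZIP transcription factor HY5 and its homologue HYH accumulate. These drive genes of flavonoid synthesis, DNA repair and photoprotection, among them *RUP1* and *RUP2*, whose products return UVR8 to its inactive form. Low R:FR inactivates phytochrome B and releases the phytochrome-interacting factors (PIFs), bHLH proteins that switch on auxin synthesis and cell-wall genes for elongation. Shade also induces genes that restrain this response, such as those for the atypical bHLH proteins HFR1 and PAR1.

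Adding UV-B to low R:FR changed the levels of many genes in both directions. With more than 2-fold difference and a Benjamini-Hochberg adjusted p below 0.05 required of each gene (edgeR, quasi-likelihood test, 20926 genes), 1731 genes (8.27%) were called higher and 1785 (8.53%) lower under +FR+UVB than under +FR. The adjusted p alone was passed by 5626 genes in the upward and 5765 in the downward direction. More than 4-fold differences were seen for 526 genes called higher and 413 called lower, and more than 8-fold differences for 182 and 121. The median log2 fold change was 1.53 among the genes called higher, -1.44 among those called lower and -0.04 over all genes tested. The 3 libraries of one condition lay wholly above or below those of the other for 1720 of the genes called higher and 1715 of those called lower. This compares with 30.8% and 31.2% of all genes tested, whether called or not. For 41 genes called higher all +FR libraries, and for 86 called lower all +FR+UVB libraries, held 3 counts or fewer, a floor of 0.158 to 0.197 CPM, and the fitted fold change is not given for those named below: where such libraries held counts, the ratio of the summed counts is given with its exact 95% binomial (Clopper-Pearson) interval, which covers counting error only, and where all were at 0, a lower bound against the floor. With these genes set to their fold against the floor the medians were 1.52 and -1.41. The balance of rises and falls depended on the scaling. By library size alone, 1140 genes were called higher and 3063 lower, so that 27.1% of the calls were upward instead of 49.2%, and the median over all genes moved to -0.31; the TMM factors were 1.05 to 1.08 in the +FR libraries and 0.875 to 0.889 in the +FR+UVB libraries. Of the 230 called genes in the groups and largest changes below, 40 overlap another annotated gene in TAIR10.1, among them *UGT84A1*, *GSTF12*, *CHS*, *F3H*, *PHR1*, *GPX7*, *DREB2A*, *XTR7*, *SNRK2.5* and *ORP4C*, and since the strand setting of the counting is not given in the sources used here, their reads cannot be told apart from those of the other gene.

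**Figure D1:**
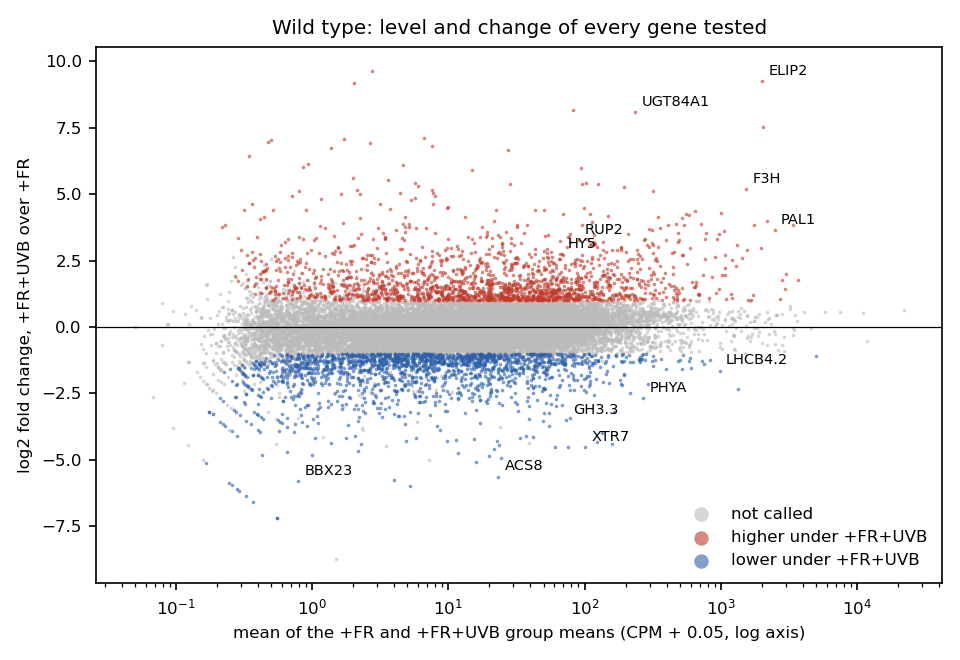
Level (horizontal, mean of both group means in CPM plus 0.05, log axis) and log2 fold change of +FR+UVB over +FR (vertical) for each of the 20926 genes tested in wild type, coloured by call. Called genes lie at all levels of expression, with 1731 above and 1785 below the line at 0, and the highest points reach further from 0 among the rises than the lowest do among the falls.

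The largest rises were those of light-stress, glycosylation and anthocyanin genes. The 10 were taken by fold change among called genes with no overlap between conditions and at least 10 CPM in the higher condition. *ELIP2* (AT4G14690, chromosome 4, 8418242 to 8419325 in TAIR10.1), which encodes an early light-induced protein that binds pigments in the thylakoid, was at 5.33, 7.87 and 6.39 CPM under +FR and 4204, 3671 and 4158 CPM under +FR+UVB. On the log2 scale it rose by 9.26 ± 0.37 SE (adjusted p = 3.33e-18, edgeR), the largest rise of the 10. Its paralogue *ELIP1* (AT3G22840) stood at 20.7, 22.7 and 22.0 CPM and then at 4295, 3487 and 4429 CPM, which is 7.54 on the log2 scale. For both transcripts every +FR+UVB library was far above every +FR library. Of the 10 genes, 4 encode UDP-glycosyltransferases, which attach sugars to small molecules. *UGT84A1* (AT4G15480, chromosome 4, 8848801 to 8850516), whose product glucosylates hydroxycinnamic acids, was at 1.74, 1.43 and 1.99 CPM under +FR and 469, 491 and 449.8 CPM under +FR+UVB (8.09 ± 0.21 SE on the log2 scale, adjusted p = 5.87e-22 from edgeR). AT2G22590 rose from 0.490, 0.423 and 0.805 CPM to 145, 179 and 169 CPM. *UGT73C1* (AT2G36750) went from 0.707, 0.475 and 0.429 CPM to 60.3, 51.5 and 52.1 CPM, and AT4G27570 from 0.326, 0.317 and 0.107 CPM to 10.7, 11.9 and 10.7 CPM. In each of these 4 genes the lowest +FR+UVB library was far above the highest +FR library. *PAP2* (AT1G66390), a MYB activator of anthocyanin genes, was at the floor in all +FR libraries (0.0544, 0.159 and 0.0537 CPM) and at 14.3, 9.66 and 15.5 CPM under +FR+UVB, 147-fold (interval 62.7 to 454) higher. *GSTF12* (AT5G17220), whose product is needed to carry anthocyanins into the vacuole, rose from 2.28, 3.49 and 3.01 CPM to 185, 164 and 205 CPM (5.97 on the log2 scale). The remaining genes of the 10 are of other kinds. *SDH2-3* (AT5G65165), an isoform of the iron-sulphur subunit of mitochondrial succinate dehydrogenase, was at the floor in all +FR libraries (0.109, 0.159 and 0.107 CPM) and at 15.7, 14.9 and 14.0 CPM under +FR+UVB, 119-fold (interval 57.3 to 296) higher. The F-box protein gene AT4G34550 rose from 0.598, 0.634 and 0.215 CPM to 29.1, 32.0 and 26.7 CPM.

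**Figure D2:**
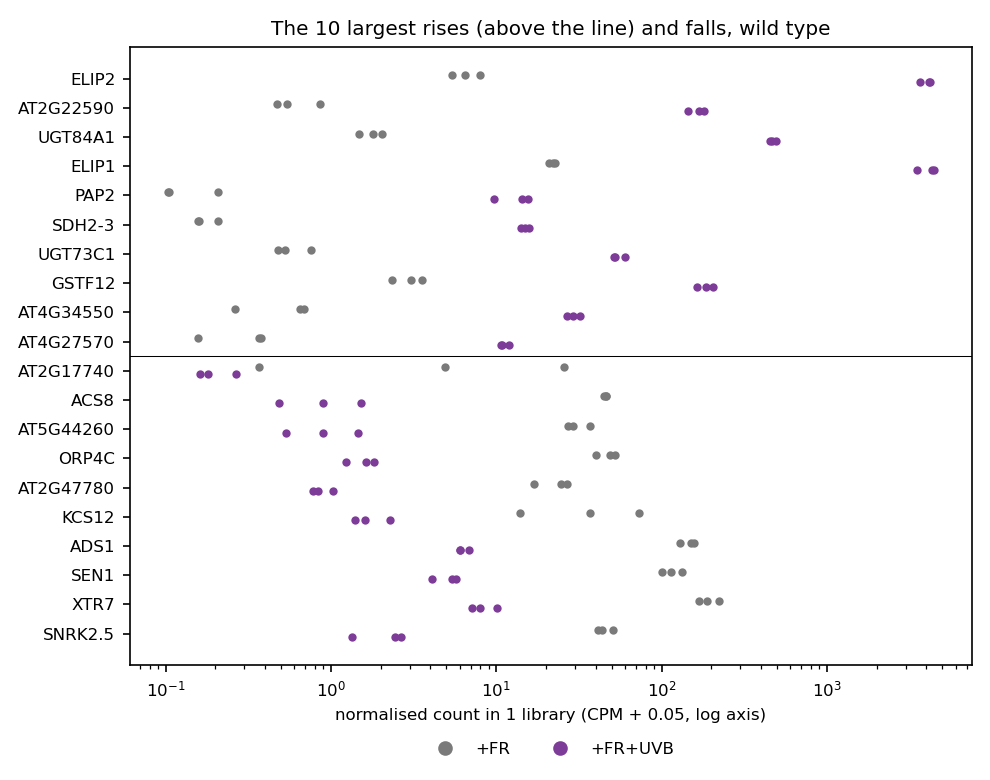
Normalised count in each library (CPM plus 0.05, log axis) of the 10 genes with the largest rises (above the line) and the 10 with the largest falls (below it) in wild type, with grey dots for the 3 +FR libraries and purple dots for the 3 +FR+UVB libraries. In all 20 genes the dots of the 2 conditions are apart, which the choice of the genes required. *KCS12* and AT2G17740 show a wide spread among their own +FR dots.

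All 14 measured genes of flavonoid and anthocyanin synthesis and transport were called higher, with a median log2 fold change of 4.18 against -0.04 over all genes. *CHS* (AT5G13930), for chalcone synthase, the first enzyme committed to flavonoids, was at 455, 499 and 374 CPM under +FR and 6189.8, 6443 and 6407 CPM under +FR+UVB (3.84 ± 0.18 SE, adjusted p = 9.44e-17 from edgeR). *F3H* (AT3G51240), for flavanone hydroxylase, rose from 80.9, 94.5 and 67.7 CPM to 2837, 2983 and 3113 CPM. *FLS1* (AT5G08640), which turns dihydroflavonols into flavonols, rose from 93.6, 117 and 83.8 CPM to 1853, 1814 and 2022 CPM (4.27). The largest relative rises among the flavonol genes were those of *F3'H* (AT5G07990), which hydroxylates the B ring, by 5.38, and of *F3H*. The genes of the anthocyanin branch started from lower levels and varied more among the +FR+UVB libraries. *DFR* (AT5G42800), for dihydroflavonol reductase, the entry to this branch, was at 0.435, 0.634 and 0.859 CPM under +FR and 9.04, 5.73 and 11.8 CPM under +FR+UVB (3.77, adjusted p = 1.33e-04). *LDOX* (AT4G22880), for the next enzyme, was at 0.598, 0.951 and 0.859 CPM under +FR and 10.2, 8.20 and 13.7 CPM under +FR+UVB (3.73). *5MAT* (AT3G29590), for a malonyltransferase that decorates anthocyanins, was at 0.0544, 0.106 and 0.215 CPM under +FR and 9.96, 5.56 and 11.5 CPM under +FR+UVB (6.09). In all 3 genes replicate 2 was the lowest of the +FR+UVB libraries, and the conditions did not overlap. Of 13 measured regulators of the pathway, 9 were called higher and 0 lower (median 1.68). The flavonol activator *MYB12* (AT2G47460) rose from 4.19, 3.43 and 5.80 CPM to 181, 197 and 179 CPM (5.37 ± 0.18 SE, adjusted p = 1.21e-19 from edgeR). Its relatives *MYB11* (AT3G62610) and *MYB111* (AT5G49330) rose by 5.14 and 3.19, and the anthocyanin bHLH *TT8* (AT4G09820) by 3.73. Genes that act against the pathway were on both sides. The repressor gene *MYB4* (AT4G38620) rose from 29.6, 32.1 and 26.6 CPM to 105, 108 and 116 CPM (1.90). *MYBL2* (AT1G71030), a repressor of anthocyanin synthesis, was at 26.4, 25.8 and 37.5 CPM under +FR and 16.2, 17.9 and 11.4 CPM under +FR+UVB, and its log2 value of -0.98 did not reach the fold minimum (adjusted p = 0.00794). *TTG1* (AT5G24520), the WD-repeat partner of the anthocyanin complex, was at 30.9, 30.2 and 31.3 CPM under +FR and 35.4, 30.5 and 31.2 CPM under +FR+UVB, with overlapping libraries. Upstream, 9 of 12 genes of the general phenylpropanoid and sinapate pathway were called higher and 0 lower (median 2.95). *PAL1* (AT2G37040) and *PAL2* (AT3G53260), for phenylalanine ammonia-lyase, the entry step, rose by 3.63 and 3.83, *PAL1* from 367, 343 and 401 CPM to 4546, 4584 and 4655 CPM. *UGT84A2* (AT3G21560), for sinapate glucosyltransferase, rose from 60.2, 64.1 and 53.9 CPM to 1246, 1256 and 1195 CPM (4.37). Isoenzymes of a step differed. *4CL3* (AT1G65060), the coumarate ligase gene of the flavonoid branch, rose by 3.85, *4CL1* (AT1G51680) by 2.70, and *4CL2* (AT3G21240) had 0.69, under the fold minimum. *PAL3* (AT5G04230) was at 0.50 (adjusted p = 0.0317) and *SNG1* (AT2G22990), for the next sinapate step, sinapoyl malate synthesis, at -0.02 (adjusted p = 0.937).

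Most photoprotection and DNA repair genes rose, with 13 of 19 called higher and 0 lower (median 1.47). Both photolyase genes, whose products reverse UV-B lesions in DNA using light, were among them. *PHR1* (AT1G12370), for the cyclobutane pyrimidine dimer photolyase, was at 7.56, 10.51 and 8.32 CPM under +FR and 54.3, 55.8 and 54.0 CPM under +FR+UVB (2.63 ± 0.14 SE, adjusted p = 1.46e-15 from edgeR), and *UVR3* (AT3G15620), for the photolyase of the other main lesion, was at 6.69, 6.13 and 4.88 CPM under +FR and 44.7, 42.8 and 36.5 CPM under +FR+UVB (2.81). The cryptochrome relative *CRY3* (AT5G24850) rose by 3.18 and *DDB2* (AT5G58760), for a damage-recognition subunit of nucleotide excision repair, by 2.28. The other excision repair genes of the list did not pass. *UVH1* (AT5G41150), *ERCC1* (AT3G05210) and *UVH6* (AT1G03190) had log2 fold changes of 0.03, 0.16 and 0.13, and *UVH3* (AT3G28030) had 0.47 (adjusted p = 8.84e-05). In the plastid, *GPX7* (AT4G31870), for a glutathione peroxidase, rose from 4.68, 6.02 and 3.167 CPM to 211, 187 and 199.6 CPM (5.43), and *SIG5* (AT5G24120), for a sigma factor of the plastid RNA polymerase, from 47.4, 48.2 and 40.7 CPM to 595, 607 and 522 CPM (3.66). *NPQ4* (AT1G44575), for the PsbS protein of thermal energy dissipation, rose by 1.78. Of the xanthophyll cycle enzymes, *ZEP* (AT5G67030) rose by 1.29 and *VDE1* (AT1G08550) had 0.41 (adjusted p = 0.00835), under the fold minimum. Of 10 genes of UVR8 signalling, 6 were called higher and 0 lower (median 1.08). *HY5* (AT5G11260, chromosome 5, 3593335 to 3595073) was at 16.8, 16.9 and 19.5 CPM under +FR and 121, 109 and 123 CPM under +FR+UVB (2.73 ± 0.14 SE, adjusted p = 2.48e-15 from edgeR). *HYH* (AT3G17609) rose by 2.69. *RUP1* (AT5G52250) was at 13.5, 12.9 and 11.3 CPM under +FR and 126, 119 and 114 CPM under +FR+UVB and *RUP2* (AT5G23730) at 18, 20.3 and 12.99 CPM under +FR and 169, 161 and 161 CPM under +FR+UVB, close to equal rises of 3.25 and 3.26. *COP1* (AT2G32950) rose less, from 44.3, 42.6 and 41.3 CPM to 92.0, 86.0 and 85.9 CPM (1.04), and of the *SPA* genes, whose products work with COP1, only *SPA4* (AT1G53090) passed the fold minimum (1.12), with *SPA1*, *SPA3* and *SPA2* at 0.95, 0.85 and 0.60. By library size alone 4 of the 10 were called. *UVR8* itself was lower in every +FR+UVB library than in any +FR library, at -0.51 on the log2 scale (adjusted p = 4.01e-06 from edgeR), short of the fold minimum. The B-box zinc finger genes, whose products bind HY5, COP1 or both and promote or restrain light responses, split, with 4 of 11 called higher and 2 lower (median 0.85). *BBX32* (AT3G21150) and *BBX31* (AT3G21890) rose by 3.83 and 3.31, *BBX22* (AT1G78600) by 2.41, from 25.9, 26.7 and 27.8 CPM to 142, 158 and 127 CPM, and *BBX30* (AT4G15248) by 2.39. *BBX21* (AT1G75540) fell from 107, 106 and 97.8 CPM to 38.8, 43.7 and 38.0 CPM (-1.37). *BBX23* (AT4G10240) was at 1.31, 2.01 and 1.07 CPM under +FR and 0, 0.0562 and 0 CPM under +FR+UVB, 75.6-fold (interval 13.2 to 3020.4) lower.

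The promoters of some of these genes are shown because the transcription factors of both pathways bind the same kind of site. HY5 and the PIFs bind the G-box CACGTG, PIFs also bind the related E-box CATGTG, which reads CACATG from the other strand, and MYB factors of the phenylpropanoid pathway bind AC elements such as ACCTACC. The windows are the 300 bases before the annotated gene start in TAIR10.1 (RefSeq annotation), read 5′ to 3′ on the strand of the gene, at chr5:4488176-4488475 (+ strand) for *CHS*, chr3:19024892-19025191 (+ strand) for *F3H*, chr1:24171636-24171935 (- strand) for *4CL3*, chr5:437065-437364 (+ strand) for *FHL*, chr3:5263701-5264000 (+ strand) for *IAA19*, chr4:14192269-14192568 (+ strand) for *YUC8*, chr5:5963406-5963705 (- strand) for *SAUR19*, with G-boxes, E-boxes and AC elements in capitals. The 7 were chosen after their letters and values were seen.
CHS: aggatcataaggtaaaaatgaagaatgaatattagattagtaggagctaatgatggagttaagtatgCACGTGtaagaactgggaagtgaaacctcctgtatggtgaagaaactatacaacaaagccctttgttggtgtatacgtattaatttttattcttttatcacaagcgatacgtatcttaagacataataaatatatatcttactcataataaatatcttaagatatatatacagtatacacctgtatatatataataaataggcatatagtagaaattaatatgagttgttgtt
F3H: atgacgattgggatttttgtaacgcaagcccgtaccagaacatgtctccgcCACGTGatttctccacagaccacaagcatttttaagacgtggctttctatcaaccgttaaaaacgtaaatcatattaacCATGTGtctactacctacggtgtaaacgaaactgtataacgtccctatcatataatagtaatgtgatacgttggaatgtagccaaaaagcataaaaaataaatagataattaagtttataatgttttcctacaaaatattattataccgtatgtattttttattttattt
4CL3: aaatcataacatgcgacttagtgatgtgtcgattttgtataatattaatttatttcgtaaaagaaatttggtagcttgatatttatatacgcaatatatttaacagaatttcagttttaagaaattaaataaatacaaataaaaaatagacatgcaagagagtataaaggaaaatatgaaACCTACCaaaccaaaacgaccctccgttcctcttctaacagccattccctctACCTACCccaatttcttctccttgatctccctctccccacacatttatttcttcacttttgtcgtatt
FHL: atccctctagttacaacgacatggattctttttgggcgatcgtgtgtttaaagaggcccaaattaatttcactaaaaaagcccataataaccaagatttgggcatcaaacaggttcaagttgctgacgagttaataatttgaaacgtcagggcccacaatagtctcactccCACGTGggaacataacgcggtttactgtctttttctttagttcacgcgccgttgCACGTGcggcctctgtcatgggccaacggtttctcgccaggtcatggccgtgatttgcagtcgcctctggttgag
IAA19: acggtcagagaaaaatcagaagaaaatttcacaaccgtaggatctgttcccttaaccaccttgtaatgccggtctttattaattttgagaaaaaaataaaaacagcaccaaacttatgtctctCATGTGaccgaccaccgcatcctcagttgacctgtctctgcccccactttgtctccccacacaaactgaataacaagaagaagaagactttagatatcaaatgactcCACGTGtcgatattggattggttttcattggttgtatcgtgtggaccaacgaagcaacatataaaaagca
YUC8: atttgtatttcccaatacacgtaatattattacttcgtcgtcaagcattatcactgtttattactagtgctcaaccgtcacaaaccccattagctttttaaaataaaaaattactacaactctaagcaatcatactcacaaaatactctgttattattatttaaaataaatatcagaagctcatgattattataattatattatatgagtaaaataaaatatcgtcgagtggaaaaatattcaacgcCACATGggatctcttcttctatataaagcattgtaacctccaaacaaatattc
SAUR19: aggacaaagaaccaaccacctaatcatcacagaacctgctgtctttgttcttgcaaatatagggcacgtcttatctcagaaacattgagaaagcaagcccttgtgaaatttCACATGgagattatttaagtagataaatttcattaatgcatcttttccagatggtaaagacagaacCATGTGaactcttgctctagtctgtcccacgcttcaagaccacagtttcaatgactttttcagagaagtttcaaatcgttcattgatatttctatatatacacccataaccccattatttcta

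A G-box was present once in the window of *CHS*, 233 bases from the annotated start, once in that of *F3H*, which also held an E-box, 170 bases away from its start, and *FHL*, a gene that fell (below), held 2. *4CL3* held 2 AC elements and no G-box. *IAA19* held a G-box and an E-box, *YUC8* a single E-box and *SAUR19* 2 E-boxes. The windows of *F3H* and *SAUR19* overlap another annotated gene, as did 33.8% of all windows. Over the tested genes with a window (20813), a G-box was present in 10.06% of the genes called higher and 9.697% of those called lower, against 8.00% of all. An E-box was present in 12.03% of the genes called higher and 19.96% of those called lower, against 13.1% of all. An AC element was present in 3.07%, 1.85% and 1.42%. The light-response element GATAAG stood in 12.3% of the genes called higher, 17.2% of those called lower and 14.6% of all, and the auxin response element TGTCGG in 5.38%, 7.18% and 5.36%. The ACGT-core box TACGTA was in 7.17%, 7.34% and 5.88%, the evening element core AAATATCT in 7.00%, 6.45% and 5.73%, and the other auxin element TGTCTC in 15.0%, 12.7% and 12.8%. Both strands were searched, no sequence of 1 motif contains another, and a match describes the letters only.

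The 10 largest falls came from genes of several kinds. They were taken by the same rule as the rises, so the lack of overlap between conditions was required of each. *ACS8* (AT4G37770, chromosome 4, 17752079 to 17754157), for an ACC synthase, the rate-limiting enzyme of ethylene synthesis, was at 46.1, 44.9 and 45.8 CPM under +FR and 0.852, 1.46 and 0.433 CPM under +FR+UVB (-5.63 ± 0.38 SE, adjusted p = 4.63e-13 from edgeR). AT5G44260, for a zinc finger protein, fell from 28.9, 27.3 and 36.7 CPM to 0.852, 1.405 and 0.487 CPM (-5.07). Neither gene's conditions came near to overlapping. *ORP4C* (AT5G57240), for a protein related to oxysterol-binding proteins, fell from 52.0, 48.8 and 40.2 CPM to 1.18, 1.57 and 1.78 CPM (-4.94). *ADS1* (AT1G06080), for an acyl-lipid desaturase, fell from 129, 149.9 and 157 CPM to 5.96, 6.799 and 6.0 CPM (-4.53). AT2G47780, for a rubber elongation factor-like protein, fell from 24.6, 26.8 and 17.0 CPM to 0.786, 0.730 and 0.974 CPM (-4.76). All +FR libraries of these 3 genes were well above all +FR+UVB libraries. *SEN1* (AT4G35770), a gene known for its rise in darkness and senescence, fell from 114, 100.2 and 133 CPM to 5.37, 5.68 and 4.06 CPM (-4.53). *SNRK2.5* (AT5G63650), for a protein kinase, fell from 41.0, 43.5 and 50.8 CPM to 2.62, 1.29 and 2.38 CPM (-4.43), and *XTR7* (AT4G14130), for a xyloglucan-modifying cell-wall enzyme, was also among the 10. In these 3 genes as well the conditions were far apart. The spread among +FR libraries bore on *KCS12* (AT2G28630), for an enzyme of very-long-chain fatty acid elongation, at 36.8, 13.9 and 72.7 CPM under +FR and 2.23, 1.35 and 1.57 CPM under +FR+UVB (-4.59 ± 0.87 SE, adjusted p = 5.87e-05). It bore more on AT2G17740, for a C1-domain protein, at 4.84, 0.317 and 25.5 CPM under +FR and 0.131, 0.112 and 0.216 CPM under +FR+UVB (adjusted p = 0.0268). In both genes +FR replicate 3 was the highest and replicate 2 the lowest, and without +FR replicate 3 AT2G17740 was no longer called (adjusted p = 0.206 from edgeR). It was not called without any single +FR+UVB library either (0.0694 to 0.0753).

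Some genes of auxin synthesis and many of auxin conjugation and response fell. Of 10 measured synthesis genes 3 were called lower and 0 higher (median -0.57), all of them *YUCCA* genes, whose flavin monooxygenases make the last step to the auxin indoleacetic acid. *YUC8* (AT4G28720, chromosome 4, 14192569 to 14194302) was at 33.9, 33.4 and 36.2 CPM under +FR and 6.29, 5.79 and 7.30 CPM under +FR+UVB (-2.42 ± 0.23 SE, adjusted p = 7.96e-10 from edgeR). *YUC9* (AT1G04180) was at 5.82, 8.24 and 6.06 CPM under +FR and 0.655, 1.07 and 1.19 CPM under +FR+UVB (-2.77), and *YUC2* (AT4G13260) at 9.52, 11.7 and 10.47 CPM under +FR and 2.75, 3.03 and 3.57 CPM under +FR+UVB (-1.76). In each the +FR libraries lay above all +FR+UVB libraries, whereas *TAA1* (AT1G70560), for the preceding aminotransferase, was at 7.13, 4.60 and 5.96 CPM under +FR and 6.22, 3.32 and 5.95 CPM under +FR+UVB with overlap (adjusted p = 0.382). Of 7 genes for auxin-inactivating enzymes, 4 *GH3* genes, which conjugate auxin to amino acids, were called lower (median -2.73). *GH3.3* (AT2G23170) was at 126, 131 and 149 CPM under +FR and 14.2, 12.03 and 9.68 CPM under +FR+UVB (-3.500) and *GH3.5* (AT4G27260) at 85.3, 77.1 and 109.9 CPM under +FR and 7.27, 12.5 and 9.09 CPM under +FR+UVB (-3.23). The family was not uniform, since *GH3.6* (AT5G54510) and *GH3.17* (AT1G28130) had -0.22 (adjusted p = 0.234) and 0.24 (adjusted p = 0.146). Of 28 *Aux/IAA* genes, which encode repressors that auxin both induces and degrades, 13 were called lower and 3 higher (median -0.84). *IAA19* (AT3G15540, chromosome 3, 5264001 to 5265695) was at 65.6, 83.4 and 47.3 CPM under +FR and 11.7, 9.10 and 7.63 CPM under +FR+UVB (-2.79 ± 0.25 SE, adjusted p = 2.83e-10 from edgeR). *IAA4* (AT5G43700) fell by 1.59, *IAA26* (AT3G16500) by 1.38, and the abundant *IAA2* (AT3G23030) from 252, 297 and 278 CPM to 128, 129.7 and 121 CPM (-1.13). The 3 that went up were *IAA14* (AT4G14550), at 27.5, 34.0 and 25.9 CPM under +FR and 77.8, 80.0 and 68.7 CPM under +FR+UVB (1.37), *IAA28* (AT5G25890), with 1.04, and *IAA15* (AT1G80390), which was at 0, 0.0528 and 0 CPM under +FR and 0.262, 0.674 and 0.595 CPM under +FR+UVB, 29.3-fold (interval 4.83 to 1199.7) higher.

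The *SAUR* genes, small auxin-up RNAs whose products promote cell expansion by acting on plasma membrane proton pumps, fell in large part. Of 80 annotated members 64 were tested, 32 were called lower and 4 higher (37 and 2 by library size alone), and the median was -1.01 (-0.96 with 4 members at the floor set to their fold against the floor). *SAUR19* (AT5G18010, chromosome 5, 5962773 to 5963405) was at 8.65, 12.6 and 8.05 CPM under +FR and 1.44, 2.14 and 1.08 CPM under +FR+UVB (-2.65 ± 0.28 SE, adjusted p = 4.59e-09 from edgeR), and its neighbours *SAUR22* (AT5G18050) and *SAUR23* (AT5G18060) had -2.46 and -2.21. The cluster on chromosome 3 fell too, with *SAUR26* to *SAUR29* between -2.68 and -2.02. AT2G18010 had the lowest value, -3.37 (7.61, 8.61 and 7.41 CPM under +FR and 0.721, 1.18 and 0.379 CPM under +FR+UVB). Members of these arrays are near-identical copies, so their reads may be split or shared between them and single members are less certain than the family. Other members gave small or upward values. *SAUR15* (AT4G38850) had -0.36 (adjusted p = 0.317), the abundant AT1G72430 had 0.03 and AT4G38840 0.11, and AT3G12955 rose from 0.707, 0.687 and 1.18 CPM to 4.72, 5.06 and 5.57 CPM (2.57). An E-box was found in the windows of 20 of the 32 members called lower and in 9 of the other 32, whose median log2 fold changes were -2.27 and -0.06. Members of an array were counted singly, so neither their windows nor their calls are independent, and this contrast was not tested. Cell-wall loosening genes followed in part. Of 29 genes for xyloglucan endotransglucosylase/hydrolases, which cut and rejoin xyloglucan chains, 10 were called lower and 1 higher (median -0.63). *XTH19* (AT4G30290) was at 163, 150.1 and 113 CPM under +FR and 11.3, 14.0 and 14.5 CPM under +FR+UVB (-3.41 ± 0.36 SE, adjusted p = 5.82e-09 from edgeR). *XTH33* (AT1G10550) and *XTH8* (AT1G11545) fell by 2.69 and 2.23. The member that rose was *XTH32* (AT2G36870), from 17.6, 17.8 and 13.4 CPM to 75.7, 50.8 and 70.3 CPM (2.01). Of 21 expansin genes, whose products loosen walls without cutting them, 7 were called lower and 0 higher (median -0.36). *EXPA11* (AT1G20190) was at 100.1, 112 and 85.8 CPM under +FR and 13.7, 14.6 and 11.7 CPM under +FR+UVB (-2.90), *EXPA16* (AT3G55500) fell by 3.24, and *EXPA8* (AT2G40610) by 1.91. *EXPA1* (AT1G69530) was at 219, 206 and 233 CPM under +FR and 208, 219.7 and 129.9 CPM under +FR+UVB with overlapping libraries (adjusted p = 0.477).

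Transcription factors of the shade response fell in several families. Of 6 shade-related bHLH genes 5 were called lower (median -1.37). *PAR1* (AT2G42870), for an atypical bHLH that restrains elongation, was at 9.90, 7.66 and 10.2 CPM under +FR and 0.393, 0.618 and 0.379 CPM under +FR+UVB (-4.29 ± 0.35 SE, adjusted p = 3.81e-11 from edgeR), and *PAR2* (AT3G58850) and *SPT* (AT4G36930) fell by 1.64 and 1.24. *PIL2* (AT3G62090) had -0.78 (adjusted p = 8.16e-04) and passed the fold minimum only by library size alone (-1.05). Growth-promoting helix-loop-helix genes were lower for 4 of 10 and higher for 0 (median -0.59). *PRE6* (AT1G26945) was at 34.3, 35.8 and 31.8 CPM under +FR and 7.99, 5.39 and 7.03 CPM under +FR+UVB (-2.32), *PRE2* (AT5G15160) fell by 2.88, and *PRE5* (AT3G28857) was 14.5-fold (interval 5.40 to 54.9) lower. The *BEE* genes, which respond to brassinosteroids, had values from -0.62 to 0.32, and none was called. Of 10 homeodomain-leucine zipper class II genes, 5 were called lower and 0 higher (median -0.94). *HAT2* (AT5G47370) was at 89.2, 107 and 77.7 CPM under +FR and 12.1, 14.2 and 11.3 CPM under +FR+UVB (-2.87 ± 0.16 SE, adjusted p = 1.37e-14 from edgeR), *HAT3* (AT3G60390) at 15.0, 13.6 and 13.3 CPM under +FR and 2.75, 1.91 and 2.22 CPM under +FR+UVB (-2.61), and *ATHB4* (AT2G44910) fell by 3.11. The 5 that were not called, among them *HAT22* (AT4G37790), ran from -0.49 to 0.23, so the class divided into members that fell by more than 1 and members near 0. The *PIF* genes themselves went both ways. *PIF4* (AT2G43010) was at 66.2, 71.6 and 58.7 CPM under +FR and 22.1, 22.4 and 18.2 CPM under +FR+UVB (-1.65) and *PIF3* (AT1G09530) fell by 1.48. *PIF8* (AT4G00050) rose from 60.9, 66.8 and 40.3 CPM to 221, 202 and 214 CPM (1.92 ± 0.15 SE, adjusted p = 1.22e-11 from edgeR). *PIF5* (AT3G59060), at 82.6, 83.3 and 72.8 CPM under +FR and 43.9, 40.6 and 37.2 CPM under +FR+UVB, lay just under the fold minimum with -0.97, and *PIF7* (AT5G61270) had 0.67. Among photoreceptor genes and their helpers, the far-red branch fell. *PHYA* (AT1G09570, chromosome 1, 3095160 to 3100819), for phytochrome A, the receptor of continuous far-red light, was at 509.8, 454 and 431 CPM under +FR and 68.9, 71.4 and 78.7 CPM under +FR+UVB (-2.67 ± 0.13 SE, adjusted p = 2.68e-16 from edgeR). *FHL* (AT5G02200) and *FHY1* (AT2G37678), whose products carry phytochrome A into the nucleus, were at 4.57, 5.02 and 5.26 CPM under +FR and 0.786, 1.18 and 0.433 CPM under +FR+UVB, and at 8.81, 7.87 and 11.9 CPM under +FR and 4.72, 4.66 and 4.22 CPM under +FR+UVB. Their log2 fold changes were -2.62 and -1.07, and that of *FHY1* was -0.87 without +FR replicate 3. *PHYB* (AT2G18790), for phytochrome B, was at 207, 187 and 184 CPM under +FR and 201, 203 and 195 CPM under +FR+UVB (adjusted p = 0.517), with overlap. The cryptochrome genes *CRY1* (AT4G08920) and *CRY2* (AT1G04400) had -0.85 and -0.81, under the fold minimum. In both every +FR+UVB library was below every +FR library, as in 31.2% of all genes tested. Of 13 genes that the study followed by RT-qPCR, 11 were called lower and 0 higher (median -2.36), but at least *ST2A* and *FLP1* were chosen for it from these libraries, so the list is not independent evidence of a direction.

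**Figure D3:**
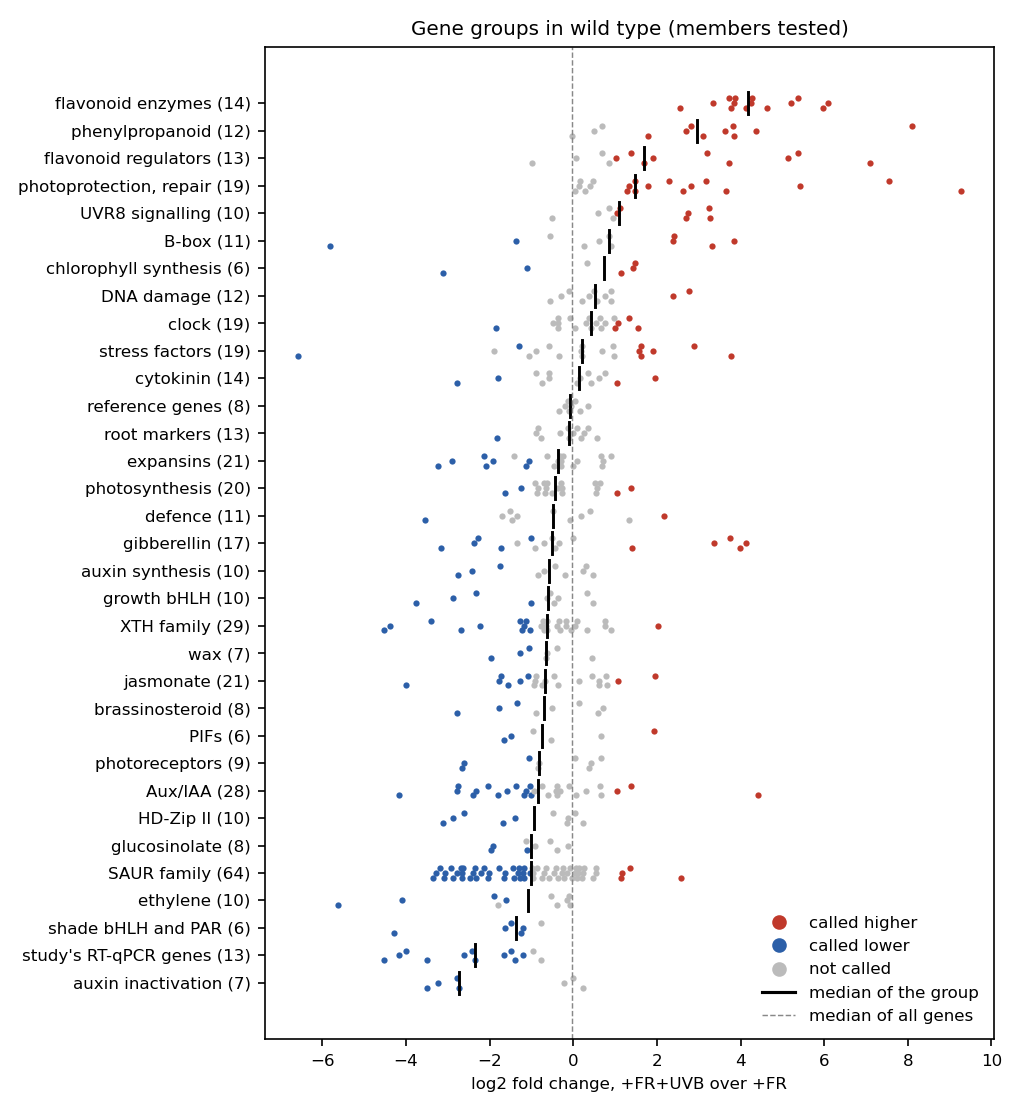
Log2 fold change of +FR+UVB over +FR in wild type (horizontal) for each tested member of 33 gene groups, ordered by their median (black bar), with red dots for members called higher, blue for members called lower and grey for members not called, and a dashed line at the median of all genes. Flavonoid enzymes stand at the top with a median of 4.18 and auxin inactivation at the bottom with -2.73, and most groups in between hold members of more than one colour.

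Gibberellin genes changed in both directions, 5 of 17 higher and 5 lower (median -0.52). Those for gibberellin oxidases of the GA2OX type, which inactivate gibberellins, made up 3 of the rises: *GA2OX2* (AT1G30040) was at 1.90, 2.27 and 3.54 CPM under +FR and 43.8, 35.1 and 43.8 CPM under +FR+UVB (3.99 ± 0.23 SE, adjusted p = 2.40e-14 from edgeR), *GA2OX8* (AT4G21200) at 0.925, 1.74 and 1.56 CPM under +FR and 25.8, 26.5 and 22.4 CPM under +FR+UVB (4.13), and *GA2OX1* (AT1G78440) rose by 3.36. *GA2OX6* (AT1G02400) went the other way, from 32.1, 35.7 and 38.9 CPM to 18.1, 22.4 and 16.3 CPM without overlap, and stayed under the fold minimum with -0.91 (adjusted p = 0.00537). Of the genes for synthesis, *GA20OX1* (AT4G25420) fell by 3.16 while *GA3OX2* (AT1G80340), for the last activating step, rose from 0.761, 1.06 and 1.02 CPM to 11.4, 12.9 and 13.8 CPM (3.74). The DELLA genes, for repressors of gibberellin responses, fell in part. *GAI* (AT1G14920) was at 81.6, 79.7 and 83.2 CPM under +FR and 14.7, 19.6 and 15.7 CPM under +FR+UVB (-2.29 ± 0.14 SE, adjusted p = 3.54e-14 from edgeR) and *RGL1* (AT1G66350) and *RGL3* (AT5G17490) fell by 2.36 and 1.72, but *RGA* (AT2G01570) had -0.34, under the fold minimum. The receptor gene *GID1B* (AT3G63010) rose by 1.41. Of 8 brassinosteroid genes 3 were called lower and 0 higher (median -0.70). They included the synthesis genes *CPD* (AT5G05690), at 168, 157 and 164 CPM under +FR and 63.1, 55.8 and 72.6 CPM under +FR+UVB (-1.35), and *BR6OX1* (AT5G38970, -2.78), and also *BAS1* (AT2G26710, -1.77), whose product inactivates brassinosteroids. Synthesis genes without a call went both ways. *ROT3* (AT4G36380) went from 18.8, 19.4 and 16.4 CPM to 31.8, 23.9 and 32.9 CPM. *DET2* (AT2G38050) went from 11.3, 10.4 and 9.12 CPM to 16.1, 14.2 and 16.5 CPM. *DWF4* (AT3G50660) went down, from 12.7, 13.2 and 15.3 CPM to 9.43, 8.48 and 11.0 CPM. Of 10 ethylene synthesis genes, 4 were called lower and 0 higher (median -1.07), all of them ACC synthase genes. Beside *ACS8*, *ACS5* (AT5G65800) and *ACS4* (AT2G22810) fell by 4.102 and 1.89, *ACS5* from 4.41, 4.44 and 2.52 CPM to 0.328, 0.0562 and 0.270 CPM. Of the ACC oxidase genes of the following step, *ACO1* had -0.07 and *ACO4* had -0.52, and neither passed the test. Of 14 cytokinin genes 2 were called higher and 2 lower (median 0.13), not far from the 8.27% and 8.53% of all genes. By library size alone 1 was called higher and 4 lower (median -0.13). *CKX5* (AT1G75450), for a cytokinin oxidase, was at 35.4, 33.4 and 29.4 CPM under +FR and 3.603, 6.07 and 4.49 CPM under +FR+UVB (-2.79 ± 0.27 SE, adjusted p = 1.06e-09 from edgeR), and *CKX7* (AT5G21482) rose by 1.05. *ARR7* (AT1G19050), for a response regulator, rose from 2.28, 3.65 and 2.15 CPM to 12.5, 9.61 and 9.30 CPM (1.95). Of 21 jasmonate genes 6 were called lower and 2 higher (median -0.68), and by library size alone 10 lower and 1 higher. The 2 called higher are near the 8.27% of all genes. The largest fall of the group was that of the sulfotransferase gene *ST2A* (AT5G07010), with -4.00, and its relative *ST2B* was also called lower. The synthesis genes *AOS* (AT5G42650), *AOC1* (AT3G25760) and *LOX2* (AT3G45140) fell by 1.79, 1.72 and 1.55, *AOS* from 245, 214 and 205 CPM to 44.8, 81.1 and 66.2 CPM. *CYP94B3* (AT3G48520), for an enzyme that inactivates jasmonoyl-isoleucine, rose by 1.94, and *LOX3* (AT1G17420), of the synthesis pathway, by 1.06. *VSP1* and *VSP2*, often used as jasmonate response markers, had 0.79 and 0.61, with +FR+UVB replicate 2 far above the others and no call (adjusted p = 0.322 and 0.495).

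In the circadian clock 4 of 19 genes were called higher and 1 lower (median 0.42; 2 were higher by library size alone), after growth in constant light. *ELF4* (AT2G40080), for a part of the evening complex, rose from 27.3, 24.7 and 30.1 CPM to 77.4, 80.9 and 83.1 CPM (1.56 ± 0.12 SE, adjusted p = 2.09e-11 from edgeR). *PRR9* (AT2G46790), *GI* (AT1G22770) and *LNK1* (AT5G64170) rose by 1.33, 1.06 and 1.003. *CHE* (AT5G08330), for a repressor of *CCA1*, fell by 1.84, and *CCA1* (AT2G46830) was at 99.6, 122 and 85.7 CPM under +FR and 107, 97.3 and 89.0 CPM under +FR+UVB with overlap. Chlorophyll synthesis genes went both ways, 3 of 6 higher and 2 lower (median 0.73). *HEMA1* (AT1G58290), for the first committed enzyme, rose from 214, 197 and 205 CPM to 577, 562 and 574 CPM (1.48), and *CHLH* (AT5G13630) and *GUN4* (AT3G59400), for magnesium chelatase and its activator, rose by 1.44 and 1.14. *PORB* (AT4G27440) and *PORA* (AT5G54190), for the light-dependent protochlorophyllide reductase, fell by 1.09 and 3.11. *PORC* (AT1G03630), for the same step, did not fall. It was at 148, 144 and 133 CPM under +FR and 172, 168 and 192 CPM under +FR+UVB, and was not called. Of 20 photosynthesis genes, 2 were called higher and 2 lower (median -0.44), and by library size alone 1 higher and 5 lower. The 2 in each direction are near the shares over all genes, 8.27% higher and 8.53% lower. *LHCB4.2* (AT3G08940), for an antenna protein of photosystem II, fell from 1558, 1498 and 1406 CPM to 443, 505 and 482 CPM (-1.64), whereas *LHCB4.3* (AT2G40100) rose from 40.6, 37.5 and 26.8 CPM to 111, 61.6 and 101 CPM (1.39) and *LHCB4.1* (AT5G01530) was at -0.26. *RBCS1A* (AT1G67090) had 0.65 and *RBCS1B* (AT5G38430) was called higher with 1.04. These families hold near-identical copies whose reads may be shared. Stress transcription factors gave 6 of 19 higher and 2 lower (median 0.20), the latter near the 8.53% of all genes. By library size alone 5 were called higher and 4 lower (median -0.07). *DREB2A* (AT5G05410), for a factor of drought and heat responses, was at 3.97, 3.12 and 5.85 CPM under +FR and 64.5, 61.8 and 50.7 CPM under +FR+UVB (3.77 ± 0.23 SE, adjusted p = 5.33e-14 from edgeR), and *ZAT12* (AT5G59820), for a zinc finger factor of oxidative stress, at 4.51, 4.23 and 11.4 CPM under +FR and 51.8, 57.6 and 38.9 CPM under +FR+UVB (2.88). *CBF1* (AT4G25490), of the cold response, was at 0.544, 0.898 and 0.483 CPM under +FR and at 0 counts in all +FR+UVB libraries, at least 3.27-fold lower, and none of the 8 *WRKY* genes was called. Of 11 defence genes, 1 was called in each direction (median -0.48), again near the 8.27% and 8.53% of all genes. *PR5* (AT1G75040) rose from 6.47, 5.12 and 16.3 CPM to 36.8, 49.1 and 40.2 CPM (2.18). *FMO1* (AT1G19250) was at 3.54, 0.317 and 7.94 CPM under +FR and 0.524, 0.225 and 0.270 CPM under +FR+UVB (adjusted p = 0.049), and it was not called without +FR replicate 1 or 3 (0.0675 and 0.218) or without any single +FR+UVB library (0.0820 to 0.121). Of 12 DNA damage response genes, 2 were called higher and 0 lower (median 0.53), *SMR5* (AT1G07500) and *SMR7* (AT3G27630), for inhibitors of cyclin-dependent kinases, with 2.77 and 2.39. Of 8 genes for aliphatic glucosinolates 3 were called lower and 0 higher (5 lower by library size alone), the synthesis genes *CYP79F2* (AT1G16400), *BCAT4* (AT3G19710) and *MAM1* (AT5G23010), with -1.96, -1.92 and -1.10. Of 7 wax genes 3 were called lower and 0 higher (median -0.66). *CER4* (AT4G33790) and *CER2* (AT4G24510) had -1.96 and -1.27, and *CER1* (AT1G02205) had -1.06 (adjusted p = 0.0318), a call that was lost without +FR replicate 2 or +FR+UVB replicates 1 or 3 (0.123, 0.145 and 0.0927). Of the root markers *WOX5* (AT3G11260) alone was called, lower, with -1.82 (adjusted p = 0.00729, and 0.0802 without +FR replicate 2 and 0.10007 with the replicate block on the compared libraries), and 4 were called lower by library size alone.

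The same UV-B treatment given in white light moved most of these genes the same way. Of the 1731 genes called higher under low R:FR, 1144 (66.1%) were also called higher by +UVB against WL, which is 81.8% of the 1398 called there. Of the 1785 called lower, 961 (53.8%) were also called lower, which is 67.6% of 1421. The median log2 fold changes in white light of the genes called higher and lower under low R:FR were 1.25 and -1.12, and these genes were chosen by their low R:FR values. The difference between both UV-B effects, tested directly with no fold minimum, was called positive for 56 of all genes (0.268%) and negative for 189 (0.903%). Among the genes called higher under low R:FR the rise was larger there for 35 and smaller for 4, and among those called lower the fall was larger for 134 and smaller for 0. The low R:FR values that chose these genes also enter the difference, so its direction among them is no independent evidence. Among the 230 called genes of the groups and largest changes described here, 29 had a called difference. For 27 of the 29 the difference was negative, so that the UV-B effect was more negative under low R:FR than in white light. These genes too were chosen by their low R:FR calls, so that count is no independent evidence of a direction. Not all of the 27 fell in white light. *HFR1* and AT1G56150 had positive values there, 0.55 and 0.13, as did *SAUR9*, *IAA34* and *IAA2* (below). *PHYA* was at 109, 117 and 125 CPM under WL and 60.9, 59.3 and 54.8 CPM under +UVB, against 509.8, 454 and 431 CPM under +FR and 68.9, 71.4 and 78.7 CPM under +FR+UVB. Its UV-B effect was -2.67 under low R:FR and -1.005 in white light, a difference of -1.67 (SE 0.17, adjusted p = 2.15e-06 from edgeR). The +FR libraries stood far above the rest, while both groups with UV-B were near each other. *SNRK2.5* was at 6.47, 6.26 and 8.11 CPM under WL and 1.84, 3.22 and 1.90 CPM under +UVB, with effects of -4.43 under low R:FR and -1.58 in white light (difference -2.85, SE 0.36, adjusted p = 5.05e-05). *XTH33* was at 3.23, 3.503 and 3.97 CPM and 3.75, 2.97 and 2.46 CPM, with effects of -2.69 under low R:FR and -0.22 in white light (difference -2.47, adjusted p = 0.00145). The white-light libraries of *XTH33* overlapped, and its UV-B effect there was not called (adjusted p = 0.572). *HAT3*, *HAT2* and *PRE6* had lower values with UV-B in both lights, but fell further under low R:FR, with differences of -1.22, -1.14 and -1.50 (adjusted p = 0.00185, 0.00726 and 0.00155 from edgeR). For *SAUR9* (AT4G36110) the direction itself turned. It rose by 1.11 with UV-B in white light (adjusted p = 0.0131), from 0.824, 1.09 and 1.96 CPM to 2.86, 3.46 and 2.15 CPM, and fell by 2.13 under low R:FR, from 8.05, 8.77 and 9.12 CPM to 1.64, 1.91 and 2.33 CPM (difference -3.24, SE 0.50, adjusted p = 4.35e-04 from edgeR). *IAA34* (AT1G15050) and *IAA2* had positive values in white light, 0.73 and 0.18, that were not called (adjusted p = 0.357 and 0.437), and falls under low R:FR of 2.39 and 1.13. For 2 of the 29 genes, *ARR7* and *UGT84A1*, the difference was positive. *ARR7* was at 12.1, 11.4 and 16.1 CPM under WL and 16.6, 16.6 and 16.2 CPM under +UVB, so that its UV-B effects were 1.95 under low R:FR and 0.32 in white light (difference 1.64, SE 0.29, adjusted p = 0.0029 from edgeR). *UGT84A1* rose in both lights, by 8.09 under low R:FR and 6.86 in white light, and its difference of 1.23 (adjusted p = 0.0124) was lost without WL replicate 2 (0.0678) or +FR replicate 2 (0.0593). No gene of the flavonoid enzymes, flavonoid regulators, photoprotection and repair or UVR8 signalling had a called difference. Over all genes 0.268% had a positive and 0.903% a negative one. At such shares few calls would fall in groups of this size, so equal effects are not shown. The flavonoid enzymes had a median of 4.18 under low R:FR and 4.80 in white light. *DFR* was at 41.5, 65.5 and 25.5 CPM under +UVB, above its +FR+UVB libraries. *MYB12* was at 141, 140 and 157 CPM, below its own. *CHS* had UV-B effects of 3.84 under low R:FR and 4.68 in white light, *HY5* of 2.73 under low R:FR and 2.83 in white light and *RUP2* of 3.26 under low R:FR and 3.41 in white light. The adjusted p of these differences was 0.0558, 0.906 and 0.886.

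**Figure D4:**
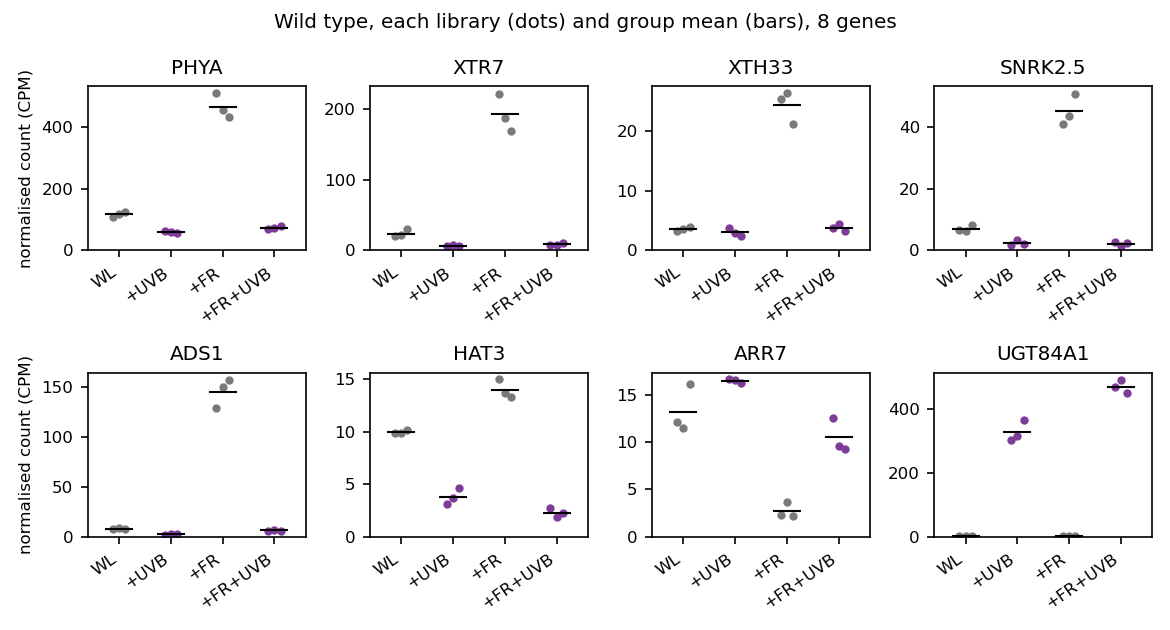
Normalised count (CPM, linear axes from 0) of 8 genes whose UV-B effect differed between low R:FR and white light, in each wild-type library (dots, grey without and purple with UV-B) with the group mean (bar). *PHYA* and the genes that fell stand highest under +FR and stand under +FR+UVB near or below their WL level, whereas *ARR7* stands lowest under +FR and *UGT84A1* highest under +FR+UVB.

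In *uvr8*, which lacks a working UV-B receptor, the same comparison called 129 genes higher and 50 lower. Its replicates spread more under +FR+UVB. Between 2 replicates, 0.674% to 3.35% of genes were more than 2-fold apart in *uvr8*, with replicate 3 apart from the others, and 0.406% to 0.808% in wild type. Under +FR the shares were 1.22% to 3.98% and 0.645% to 3.16%. Of the 1731 genes called higher in wild type 85 (4.91%) were also called higher in *uvr8*, and of the 1785 called lower 37 (2.07%). The median log2 fold changes of the wild-type calls were 0.19 and -0.21 in *uvr8*. The difference between genotypes was called for 1342 of the 1731 genes and for 1267 of the 1785, each time with the smaller effect in *uvr8*. These genes were chosen by their wild-type values, which also enter the difference, so its direction is no independent evidence. Over all genes tested the UV-B effect was called higher in *uvr8* for 16.4% and lower for 17%. *ELIP2*, *UGT73C1*, *MYB12*, AT2G22590, *ZAT12* and *XTR7* were the genes named above that were also called in *uvr8*. *ELIP2* was at 11.6, 10.2 and 11.2 CPM and 18.2, 15.0 and 34.95 CPM there, a log2 fold change of 1.05 (adjusted p = 0.0391) against 9.26 in wild type. *UGT73C1* kept the largest effect, 2.23, from 1.66, 1.08 and 1.46 CPM to 7.71, 7.55 and 4.69 CPM. For *ZAT12*, with 1.62 in *uvr8*, the difference from wild type did not pass (adjusted p = 0.103 from edgeR). *CHS*, by contrast, was at 576, 614 and 424 CPM and 635, 518 and 588 CPM in *uvr8* (0.11, adjusted p = 0.789), *HY5* at 17.1, 17.9 and 16.5 CPM and 20.01, 25.2 and 16.8 CPM (0.27, adjusted p = 0.368), and *PHYA* at 371, 416 and 547 CPM and 299.9, 279.9 and 340.2 CPM (-0.54, adjusted p = 0.0131). Their differences from wild type had adjusted p values of 2.59e-13, 8.56e-11 and 7.36e-11. Over the groups, the median in *uvr8* was 0.19 for the flavonoid enzymes, 0.20 for photoprotection and repair and 0.14 for the *SAUR* family. For the stress transcription factors it was 0.87, above the 0.20 of wild type, which was -0.07 by library size alone. The difference was called for 4 of 19 of them, against 16.4% higher and 17% lower in *uvr8* over all genes.

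**Figure D5:**
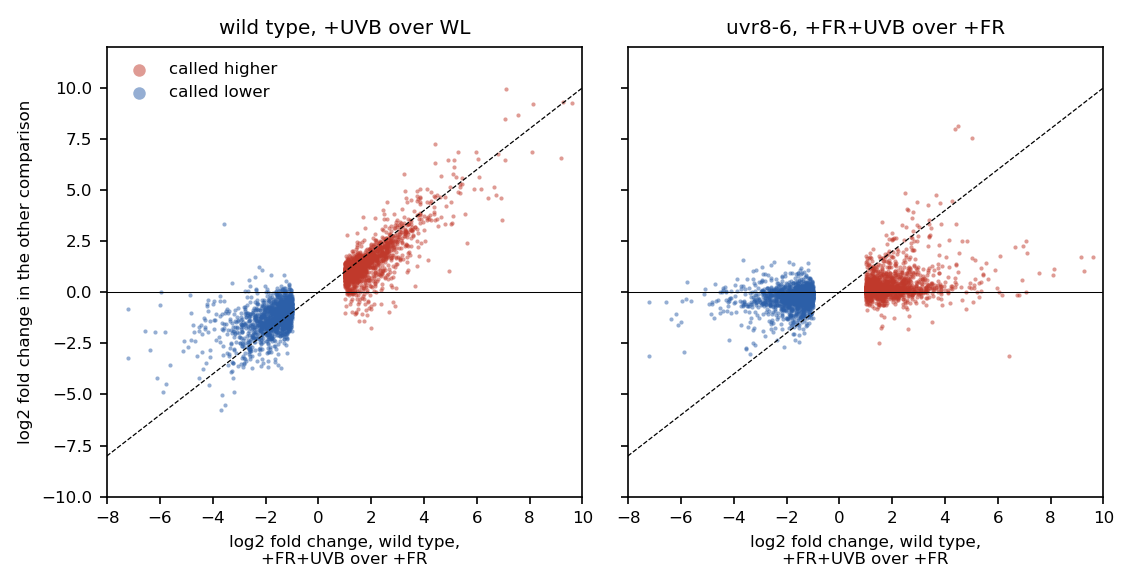
Log2 fold change in another comparison (vertical) against that of +FR+UVB over +FR in wild type (horizontal) for the 3516 genes called there, red for higher and blue for lower, with a dashed line of equality. For +UVB over WL in wild type (left) the points follow the dashed line, with medians of 1.25 and -1.12, and for *uvr8* (right) they lie along 0, with medians of 0.19 and -0.21.

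In *hfr1* the medians of the same genes, chosen by their wild-type values, were 1.31 and -1.16. The difference from wild type was called for 14 of all genes (0.0669%), 1 of them among the genes called higher in wild type and 13 among those called lower. The *HFR1* transcript was present in *hfr1*, so it does not check that label. Of the 33 groups, 6 held a gene with a called difference. These were 2 of 6 shade-related bHLH genes, *PIL1* and *HFR1*, 5 of the 13 RT-qPCR genes, which are these 2 with *IAA29*, *ST2A* and *FLP1*, and 1 gene each of the *Aux/IAA* (*IAA29*), homeodomain-leucine zipper class II (*ATHB4*), cytokinin (*ARR7*) and jasmonate (*ST2A*) groups. The study picked *ST2A* and *FLP1* for RT-qPCR from genes whose UV-B suppression was absent in *hfr1* in these libraries. Their differences are therefore no independent evidence. *ATHB4* was at 5.47, 4.99 and 5.43 CPM under +FR and 3.32, 3.65 and 1.62 CPM under +FR+UVB in *hfr1*, against 3.37, 3.75 and 3.49 CPM and 0.197, 0.674 and 0.325 CPM in wild type (adjusted p of the difference = 0.0161 from edgeR, lost under 8 of 22 alternative settings). In the other 27 groups, the 14 flavonoid enzymes, 19 photoprotection and repair genes and 64 *SAUR* genes among them, 0 differences were called. With 0.0669% called over all genes, hardly any calls would fall in groups of this size, so equal effects are not shown. The flavonoid enzymes had a median of 3.81 in *hfr1* and 4.18 in wild type, and the *SAUR* family had -0.78 and -1.01. *PHYA* fell by 1.99 in *hfr1*, from 584, 539.7 and 529.6 CPM to 144, 139 and 134 CPM, and *HAT2* by 2.34, and for neither was the difference from wild type called (adjusted p = 0.169 and 0.781 from edgeR).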

How the data were processed

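Whole seedlings were read by stranded single-end mRNA sequencing of 100 bp in 36 libraries. The authors aligned reads to TAIR10 with TopHat2 2.0.13 after quality control with FastQC 0.10.2, counted them per gene with HTSeq 0.6.1 and normalised them with edgeR 3.4.2. They deposited raw counts of 33602 genes and a normalised table of 20926 genes, whose filter is not given in the sources used here. The deposited normalised signal equalled TMM-scaled CPM computed here from the raw counts to within 4.9402e-08%.

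The raw counts of the 20926 genes were fitted in R 4.3.3 with edgeR 4.0.16 (TMM, quasi-likelihood test, legacy method) over all 36 libraries with 12 group means. Genes were called at a fold change over 2 and a Benjamini-Hochberg adjusted p under 0.05, and differences between UV-B effects at an adjusted p under 0.05 with no fold minimum. Groups came from the labels. P-values measure the spread between plates of pooled seedlings. Totals of 9749710 to 21175260 counts limit the precision of scarce genes, and 3 counts in a library were taken as the floor. The named genes were the 10 largest rises and the 10 largest falls among calls whose conditions do not overlap and which reach 10 CPM in the higher condition, with the members of the gene lists. Comparisons, genes and lists were chosen with earlier results of these data known. Gene coordinates and promoters came from the RefSeq annotation of TAIR10.1, and motifs were searched by exact match. The procedure was tested on simulated data. Alternatives were library-size scaling, DESeq2 1.42.0, other edgeR tests, gene filters and fold minimums, fits to the compared libraries alone, the replicate number as a block and leaving out each replicate.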

Additional observations from a re-analysis of the deposited data

Results flagged for a closer look

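The results below stood out because the UV-B effect differed between groups, by a direct test of the difference (edgeR's quasi-likelihood test, adjusted p under 0.05). Between *uvr8* and wild type under low R:FR, 3440 genes had a higher and 3555 a lower UV-B effect in *uvr8*, and between low R:FR and white light in wild type 56 genes had a higher and 189 a lower effect under low R:FR.

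Among the largest changes and the called members of the gene groups, 7 genes had a UV-B effect under low R:FR that differed in *hfr1*. The effect in *hfr1* was higher on the log2 scale by 1.63 for *PIL1*, 2.23 for *IAA29*, 3.19 for *ST2A*, 2.23 for *FLP1*, 1.57 for *HFR1* and 2.22 for *ATHB4*, all of which fell in wild type, and for *ARR7*, which rose, the difference was -1.59. Over 22 alternative settings the adjusted p from edgeR or DESeq2 reached 0.0758 for *FLP1*, 0.107 for *HFR1*, 0.121 for *ATHB4* and 0.198 for *ARR7*, whose differences were lost under 4, 9, 8 and 13 settings.

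Between low R:FR and white light in wild type, 29 of the same genes differed. They were chosen by calls under low R:FR, which also enter this difference. The log2 difference was 1.23 for *UGT84A1* and 1.64 for *ARR7*, which rose under low R:FR. Among the largest falls it was -2.25 for *ORP4C*, -3.16 for AT2G47780, -2.83 for *ADS1*, -2.63 for *XTR7* and -2.85 for *SNRK2.5*. Among auxin genes it was -1.31 for *IAA2*, -0.80 for *IAA4*, -1.95 for *IAA19*, -0.90 for *IAA26*, -3.12 for *IAA34*, -1.52 for *GH3.5*, -1.52 for *YUC2* and -1.55 for *YUC8*, and among *SAUR* genes -3.24 for *SAUR9*, -2.48 for AT1G56150, -2.47 for AT2G18010 and -0.84 for AT4G34760. It was -1.76 for *HFR1*, -2.61 for *PAR1*, -1.50 for *PRE6*, -1.14 for *HAT2*, -1.22 for *HAT3*, -1.67 for *PHYA*, -3.41 for *ST2A*, -2.07 for *CKX5*, -2.47 for *XTH33* and -2.42 for *XTH19*.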

How the results depend on the processing

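No count of calls and no fold change or difference of a followed gene changed direction, but by library size alone the medians of the cytokinin genes and the stress transcription factors changed sign (to -0.13 and -0.07). By library size alone the counts were 1140 genes higher and 3063 lower, with 6193 and 1898 higher and lower differences in *uvr8* and 47 and 275 between low R:FR and white light. No fold minimum gave 5626 and 5765 genes and a minimum of 1.5-fold 3298 and 3596. The difference between low R:FR and white light was positive for 96 genes by edgeR's likelihood ratio test, for 120 and negative for 292 in a fit to the compared libraries alone, and positive for 105 and negative for 292 with DESeq2.

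The replicate number as a block over all 36 libraries gave 1737 genes higher and 1760 lower, and 61 and 202 differences between low R:FR and white light. With only the compared libraries it gave 1762 and 1610, and 83 and 237. Same-numbered libraries did not deviate together (correlations -0.161, -0.108 and -0.224), so the numbers were not taken to pair samples. Leaving out each replicate in turn gave 1692 to 1794 genes higher, 1668 to 1768 lower, 2944 to 3368 and 3159 to 3807 differences in *uvr8*, and 21 to 81 and 112 to 207 differences between low R:FR and white light, with 21 without +UVB replicate 2, 81 without WL replicate 3 and 112 without +UVB replicate 1.

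Among single genes, *PIF5* passed the fold minimum without +FR replicate 3 (-1.03), without +FR+UVB replicate 1 (-1.03) and by library size (-1.24). *FMO1*, AT2G28085, *WOX5*, *CER1*, *FHY1* and AT2G17740 lost their call without single libraries, AT2G28085 with adjusted p of 0.0844 to 0.0953 from edgeR. Of the 29 differences between lights, 16 held under all 22 settings. Those of *ORP4C*, AT2G47780, AT2G18010, AT4G34760 and *IAA4* were lost under 13, 12, 12, 12 and 11, those of *IAA34*, *CKX5*, AT1G56150, *YUC8* and *GH3.5* under 9, 9, 9, 8 and 7, and those of *YUC2*, *PAR1* and *UGT84A1* under 3, 3 and 2. The cause was not tested.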
